A study of Mus musculus with 2 samples.

Results

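Aminoacyl-tRNA synthetases were compared between haematopoietic stem cells of Wip1 knockout mice and of wild-type mice, all aged 3 months, with 1 Affymetrix array for each genotype. Members were the probe sets whose only gene in the platform's annotation is 1 of 36 listed synthetase genes. Of these genes 35 had such a probe set, 72 probe sets in all, among 18193 genes on the array. Dars was not analysed here. Of the members with a probe set, 34 were detected, meaning that the brightest probe set of the gene lay above a floor of 26.1 (the higher of the arrays' median intensities after centring) on at least 1 array. Mars2, which charges the mitochondrial methionine tRNA, was under the floor on both arrays, at 7.01 in the knockout and 7.62 in the wild type in its brighter probe set. Wip1 is the phosphatase encoded by Ppm1d. The sources used here do not give the Wip1 allele, the sorting scheme or the number of animals behind each array.

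Each synthetase joins 1 amino acid to its tRNAs and so supplies the ribosome with charged tRNA. Cytosol and mitochondria use separate sets of these enzymes, and most mitochondrial ones are encoded by their own nuclear genes, whose symbols end in 2. Gars and Kars each make the enzyme for both compartments, the phenylalanine enzyme of the cytosol is built from the products of Farsa and Farsb, and Eprs encodes a fused enzyme for glutamate and proline. Several cytosolic synthetases are known targets of ATF4, the transcription factor of the integrated stress response, which is translated when amino acids are short. In stem cells, a low rate of protein synthesis is a known feature of the resting state.

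Each difference below is the log2 intensity in the knockout minus that in the wild type, after centring the arrays on detected probe sets with 1 gene. A single array per genotype allows no test over samples, and the number of arrays limits the precision. As the one available measure of error, log2 differences of probe sets for the same gene varied with an SD of 0.22 over 5043 genes, which leaves out variation between animals and between arrays. All members were read from the same pair of arrays, so their differences are not independent observations. In bulk samples, fewer cells of a type and less RNA per cell cannot be told apart.

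The stem cell label was checked against 9 markers, of which 7 were analysed and all 7 were detected, among them Kit (960 in the knockout against 772 in the wild type), Cd34 (2025 against 1512) and Hlf (1270 against 788). Slamf1 (144 against 230) and Mecom (463 against 494) were lower in the knockout. The summed intensity of these 7 markers was 5353 in the knockout and 4265 in the wild type. Markers of other blood cells were present too, and 6 neutrophil markers had a larger sum, 11756 in the knockout and 14003 in the wild type. The brightest of these was Mpo (3665 against 5498). For 4 megakaryocyte markers the sums were 514 and 723, and for 4 monocyte and macrophage markers 1990 and 1511. In that last list 3 of 4 were higher, Csf1r by most (770 against 294, 1.40), while Lyz2 had 1139 against 1151. Summed intensities were 249 and 215 for 3 B cell markers, 99.5 and 109 for 3 T cell markers and 140 and 157 for 3 erythroid markers. The Y-linked Eif2s3y had an intensity of 149 in the knockout and 31.8 in the wild type, and Kdm5d had 65.2 against 8.92. The X-linked Xist was bright on both arrays, at 3778 in the knockout and 6227 in the wild type in its brightest probe set. The samples thus differed in sex-linked transcripts too, and the sex of the animals is not settled by them. Both probe sets of Ppm1d were about as bright in the knockout (160 and 59.0) as in the wild type (167 and 55.6), and where they lie with respect to the deletion is unknown here. The part of these differences in the results below was not tested.

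Cytosolic synthetase transcripts were mostly lower in the Wip1 knockout, each by a small amount, whereas the mitochondrial set went both ways. Of 19 detected cytosolic genes, 17 were lower and 2 higher, against 50.2% of all 11388 detected genes below 0. The median difference was -0.16 on the log2 scale, with a range from -0.47 to 0.15, beside a median of -0.001 over all detected genes. The 1.2-fold size was reached downward by 8 cytosolic genes and upward by 0. Over all detected genes 11.8% were that much lower and 13.1% that much higher. None of the 34 detected members reached 1.5-fold in either direction, a size that 1.55% of all detected genes passed downward and 2.33% upward. Among 8342 detected genes within the intensity range of the cytosolic members, 50.1% were below 0 and 12.3% at least 1.2-fold lower, so the background was much the same at their brightness.

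Of 15 detected mitochondrial genes, 8 were lower and 7 higher, with a median of -0.02 and a range from -0.43 to 0.53. Sars2, Vars2 and Wars2 counted as higher only through the centring of the arrays. The deposited values of their brightest probe sets were equal on both arrays or, for Wars2, slightly lower in the knockout. The dimmer probe sets of Vars2 (74 against 69.8) and Wars2 (35.2 against 33.2) were slightly higher in the knockout as deposited. Without centring 9 genes were lower, and after quantile normalization 11. With a floor at the 75th percentile of each array, 6 of the 8 genes kept were lower, with a median of -0.07. The 1.2-fold size was reached by 2 genes downward and by 2 upward. Among 5888 detected genes within their intensity range, 47.4% were below 0, 12.4% were lower by 1.2-fold or more and 15.4% higher by as much, shares close to those of the mitochondrial members. The cytosolic median lay below the mitochondrial one, with a gap of -0.14 on the log2 scale. The mitochondrial members were also dimmer, with a median intensity of 103 in the knockout against 466 for the cytosolic ones. The gap was -0.24 when each gene was taken as the median over its detected probe sets, and -0.22 without the probe set classes _s_at, _x_at and _a_at, which can match several transcripts.

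**Figure D1:**
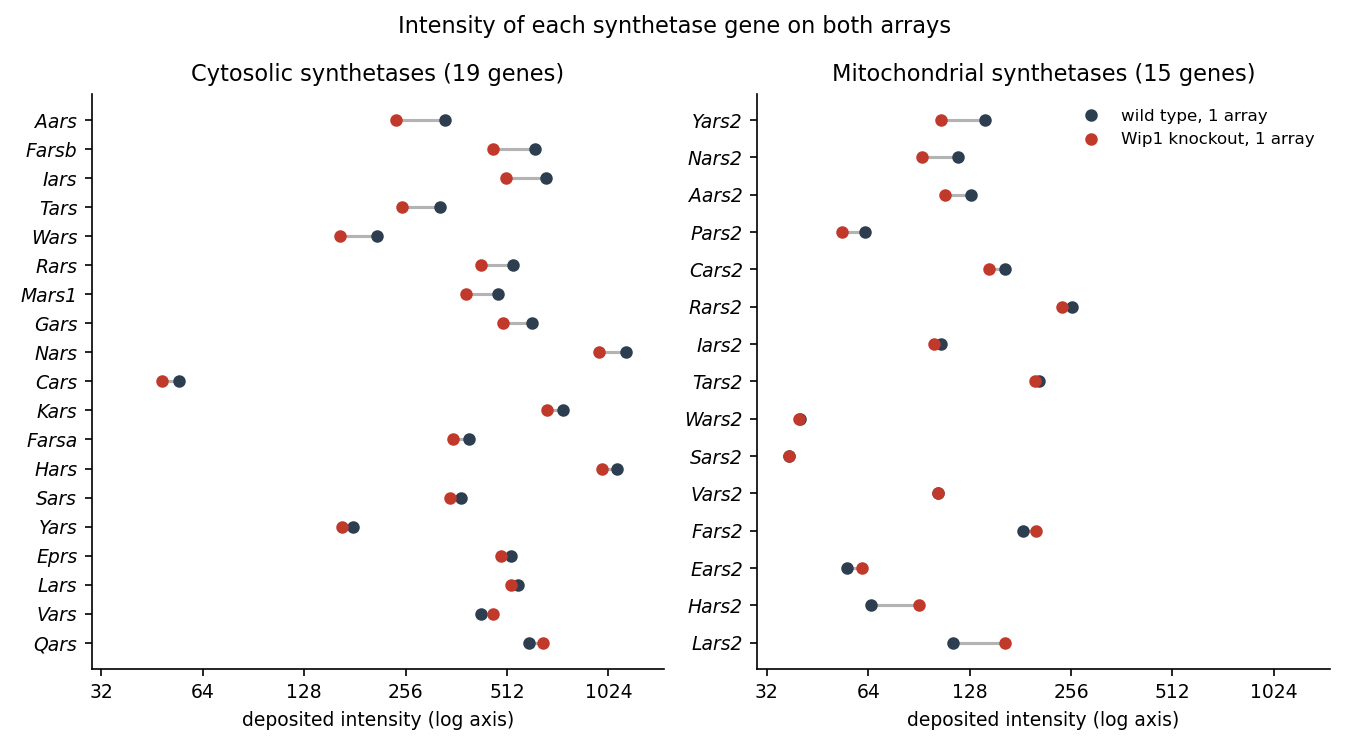
Deposited intensity (log axis) of the brightest probe set of each detected synthetase gene on the knockout array (red) and the wild-type array (dark), cytosolic genes on the left and mitochondrial genes on the right, ordered by their difference. The red point lies left of the dark one in 17 of 19 cytosolic rows, and the mitochondrial rows hold both orders.

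The alanine enzyme gene Aars differed most among the cytosolic members by its brightest probe set, whereas Iars (-0.46) lay below Aars (-0.35) as the median over detected probe sets. The brightest probe set of Aars had an intensity of 240 in the knockout and 335 in the wild type, 1.38-fold lower, and the other probe set had 148 and 174. Both probe sets were thus lower in the knockout, by -0.47 and -0.22 on the log2 scale, and the dimmer one by less than the 1.2-fold size. Iars, which charges isoleucine tRNA, stood at 510 against 671 and at 432 against 632 in its other probe set. The log2 differences of Iars were -0.38 and -0.53, both past 1.2-fold. Farsb, the beta subunit of the phenylalanine enzyme, was lower in each of 4 detected probe sets, whose intensities were 466 against 619, 423 against 512, 156 against 170 and 32.0 against 39.2. Their log2 differences ran from -0.40 to -0.12.

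Tars, the threonine enzyme gene, had 250 in the knockout and 325 in the wild type, a log2 difference of -0.37 in its only probe set. Wars, which charges tryptophan tRNA and is also known as an interferon-induced gene, had 164 against 210, 116 against 131 and 74.1 against 94.3 in 3 detected probe sets. All 3 were lower, by -0.34 to -0.16, and another probe set was under the floor on both arrays. The arginine enzyme gene Rars had 428 against 532, and the methionine enzyme gene Mars1 had 387 against 481, each a log2 difference of -0.30 by a single probe set. Gars, the glycine enzyme gene, had 499 against 608 (-0.27), also by a single probe set. These 8 genes are those past 1.2-fold. Nars, the asparagine enzyme gene, lay just short of that size, with 958 against 1158 (-0.26) in its brightest probe set and -0.32 in the other.

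The differences of the remaining lower cytosolic genes were within the SD of a probe set. They were Cars (-0.16), Kars (-0.14), Farsa (-0.14), Hars (-0.13), Sars (-0.10), Yars (-0.10), Eprs (-0.08) and Lars (525 against 551, -0.06). Eprs shows how much the choice of probe set matters, since its 3 detected probe sets had log2 differences of -0.08, -0.18 and -0.30. The alpha subunit gene Farsa was lower in 3 probe sets and higher in its dimmest one, where 35.8 stood against 27.2. The second probe set of Cars was under the floor in the knockout (25.3) and not in the wild type (34.2), so that its log2 difference of -0.39 is a bound.

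Only Qars and Vars were higher among the detected cytosolic genes, both by less than the SD in their brightest probe set. Qars, the glutamine enzyme gene, had 657 against 597, 535 against 459 and 157 against 151 in its detected probe sets. All 3 were higher in the knockout (0.15, 0.23 and 0.06). Vars, the valine enzyme gene, had 467 against 428 (0.14) by its only probe set.

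Probe sets of the same cytosolic gene mostly pointed the same way. Of 37 detected cytosolic probe sets, 32 were lower (86.5%), against 49.7% of 19778 detected probe sets with 1 gene. Of 11 cytosolic genes with several detected probe sets, 9 were lower in every one (for all 5043 such genes on the array this share was 29.1%), Qars was higher in every one, and Farsa was mixed. Of 24 detected mitochondrial probe sets, 12 were lower and 12 higher. Probe sets of a gene share their RNA sample and array, so they check the measurement of the transcript and not the difference between genotypes.

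**Figure D2:**
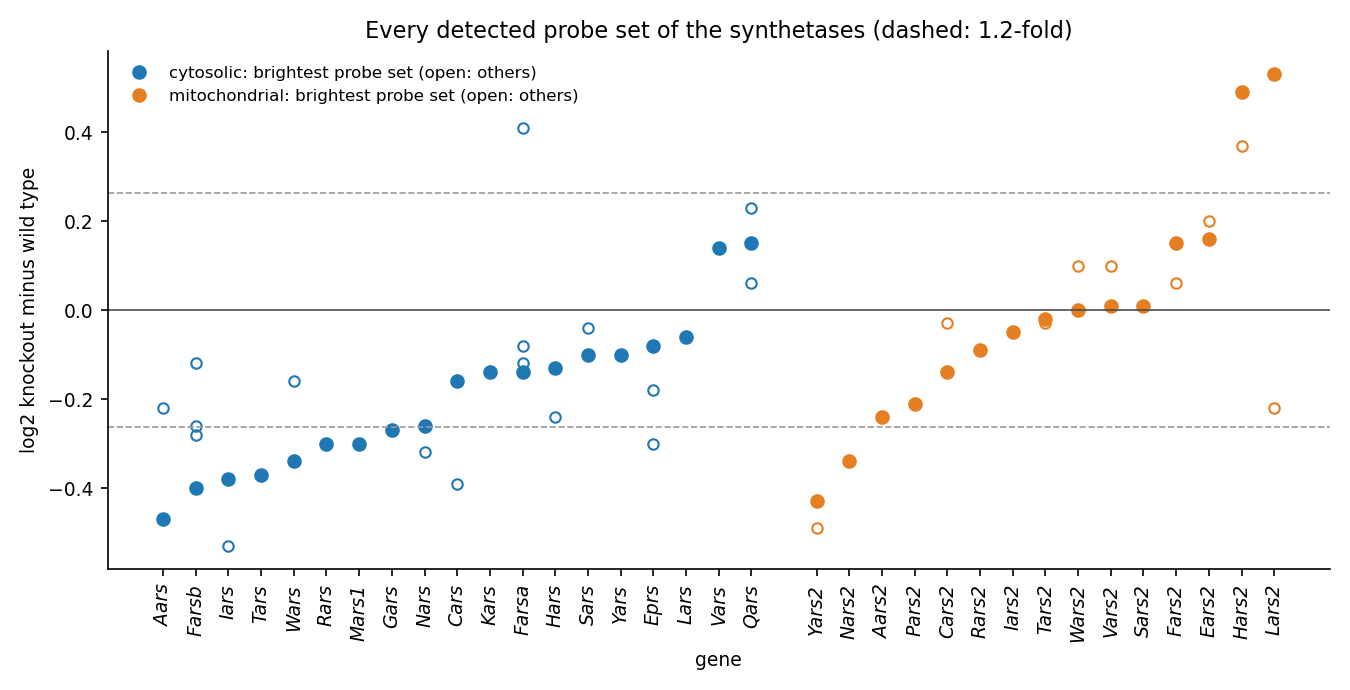
Log2 knockout minus wild type (vertical axis) of all 61 detected probe sets of the detected synthetases, by gene, with the brightest probe set of a gene filled and the others open, cytosolic genes in blue and mitochondrial genes in orange. Dashed lines mark 1.2-fold. Cytosolic points lie mostly below 0 apart from Vars, Qars and 1 dim probe set of Farsa, while Hars2 and Lars2 at the right reach 0.49 and 0.53.

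Among the mitochondrial members, 2 genes were lower past 1.2-fold. Yars2, which charges mitochondrial tyrosine tRNA, had 105 in the knockout against 142 in the wild type and 37.5 against 53.2 in its other probe set. Both probe sets of Yars2 were lower, by -0.43 and -0.49 on the log2 scale. Nars2, the mitochondrial asparagine enzyme gene, had 92.3 against 118 (-0.34) by its only detected probe set. The mitochondrial alanine enzyme gene Aars2 followed, at 108 against 129 (-0.24).

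Hars2 and Lars2 were higher in the knockout, and they differ in how well their probe sets match. Hars2, the mitochondrial histidine enzyme gene, had 90.6 against 65.0 and 82.7 against 64.7, with log2 differences of 0.49 and 0.37. Both probe sets of Hars2 were thus past 1.2-fold in the same direction. Lars2, the mitochondrial leucine enzyme gene, had 163 against 114 (0.53) in its brightest probe set but 29.9 against 35.1 (-0.22) in a dimmer one, and the third was under the floor on both arrays. The median over the detected probe sets of Lars2 was 0.16. Ears2, the mitochondrial glutamate enzyme gene, had 61.4 against 55.5 (0.16) and, in a dimmer probe set that was under the floor in the wild type, 29.7 against 22.8.

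The differences of the other mitochondrial genes were within the SD of a probe set. Pars2 (-0.21), Cars2 (-0.14), Rars2 (-0.09), Iars2 (-0.05) and Tars2 (-0.02) were lower, and Fars2 was higher (0.15). Wars2 had 39.8 against 40.1. The brightest probe sets of Sars2 (37.3) and Vars2 (103) held exactly the same deposited value on both arrays, as did 5.63% of all probe sets, and their log2 difference of 0.01 comes from the centring alone.

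Set side by side for the same amino acid, the cytosolic gene had the lower difference in 12 of 15 pairs, and the median of the cytosolic difference minus the mitochondrial one was -0.24. Both Farsa and Farsb were paired with Fars2, so the pairs are not fully separate. Eprs was paired with Ears2 only. The mitochondrial proline enzyme gene Pars2 (-0.21), its other possible partner, lay below Eprs (-0.08) and was left out of the count. With an added offset the cytosolic gene had the lower difference in 11 of 15 pairs. Without the probe set classes _s_at, _x_at and _a_at it did so in 7 of 10. The gap was widest for histidine (-0.13 for Hars and 0.49 for Hars2) and for leucine (-0.06 for Lars and 0.53 for Lars2), followed by Farsb and Fars2 (-0.40 and 0.15). The leucine gap of -0.59 rests on the brightest Lars2 probe set and was -0.21 as the median over detected probe sets. Hars and Hars2 are neighbouring genes in the RefSeq gene table. Tyrosine went the other way, with -0.10 for Yars and -0.43 for Yars2. Asparagine (-0.26 for Nars and -0.34 for Nars2) and valine (0.14 for Vars and 0.01 for Vars2) also had the lower value in the mitochondrial gene, by less than the SD of a probe set.

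**Figure D3:**
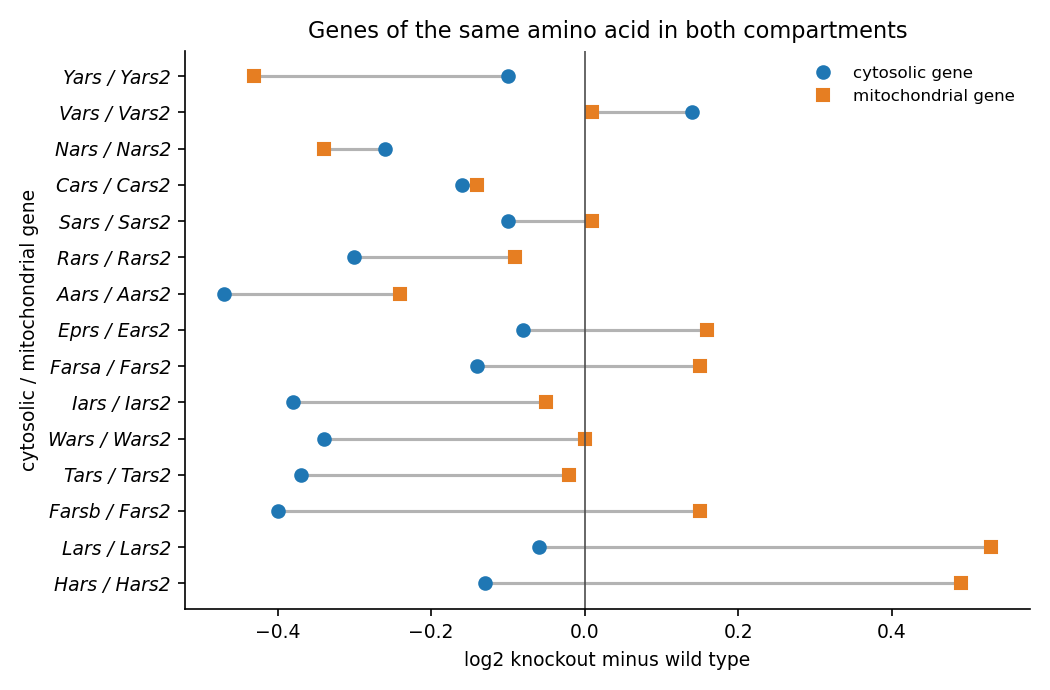
Log2 knockout minus wild type (horizontal axis) of the cytosolic gene (blue circle) and the mitochondrial gene (orange square) of the same amino acid, 1 pair a row, ordered by the gap. The circle lies left of the square in 12 of 15 pairs, and Yars with Yars2 shows the opposite order.

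Within the cytosolic set, genes known to respond to ATF4 were all lower. Of 12 such genes (Aars, Cars, Eprs, Gars, Iars, Lars, Mars1, Nars, Sars, Tars, Wars and Yars) 12 were lower, 6 of them at least 1.2-fold, with a median of -0.27. Of the 7 other detected cytosolic genes, 5 were lower, 2 of them (Farsb and Rars) at least 1.2-fold, with a median of -0.14. Over all detected genes 11.8% were at least 1.2-fold lower. Since 17 of the 19 detected cytosolic genes were lower, most lists drawn from them would be mostly lower. The ATF4 list was also chosen with earlier results of these data known, so the split is not independent evidence. Membership of the multisynthetase complex, the cytosolic assembly of several synthetases and scaffold proteins, went with little difference: 6 of 7 detected complex members were lower (median -0.14), as were 11 of 12 free enzymes (median -0.21). Both medians were -0.24 without the probe set classes _s_at, _x_at and _a_at. Synthetases fall into class I and class II by the fold of their active site. All 9 detected cytosolic class II genes were lower (median -0.26), against 7 of 9 of class I (median -0.16), with Eprs left out because it holds an enzyme of each class. As the median over detected probe sets of a gene these medians were -0.27 and -0.28, so the 2 classes then lay together. The mitochondrial genes had medians of -0.03 over 8 class I genes and -0.02 over 7 class II genes.

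ATF4 acts with C/EBP proteins at a composite element whose core can be written TGATGNAA. This string was searched on both strands of the RefSeq promoter windows (GRCm38.p6), which run from 250 bases before to 50 bases after the start of a gene. Windows were matched for 12 of the 19 detected cytosolic genes and 13 of the 15 detected mitochondrial ones. The string was present in 5 of the 12 cytosolic genes with a window (Aars, Gars, Iars, Tars and Yars) and in 0 of the 13 such mitochondrial genes, against 249 of 9229 detected genes with a window (2.70%) and 3.97% of all 32851 windows. All 5 genes are on the ATF4 list above. A match is a description of the letters and shows no binding. The stretches are shown because such matches were found in cytosolic and not in mitochondrial windows, with the match in capitals. TTGCATCA and TTTCATCA are the string read on the opposite strand. Coordinates are Aars chr8:111033704-111033763 (+), Gars chr6:55037945-55038000 (+), Tars chr15:11399659-11399699 (-), Iars chr13:49682126-49682155 (+) and Yars chr4:129189895-129189924 (+).
Aars: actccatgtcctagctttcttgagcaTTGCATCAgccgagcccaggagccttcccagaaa
Gars: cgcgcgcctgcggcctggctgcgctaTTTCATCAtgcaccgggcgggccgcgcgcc
Tars: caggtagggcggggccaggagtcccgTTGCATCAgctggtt
Iars: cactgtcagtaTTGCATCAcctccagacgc
Yars: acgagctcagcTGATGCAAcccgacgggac

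The matches of Aars, Gars and Tars lie before the start of the gene, beginning 112, 30 and 15 bases upstream, and those of Iars and Yars lie just after it. Aars holds a further match after its start. The 5 cytosolic genes with a match had log2 differences from -0.47 to -0.10 with a median of -0.37, and 5 of 5 were lower. The 7 with a window and no match (Eprs, Farsa, Farsb, Kars, Mars1, Qars and Sars) ranged from -0.40 to 0.15 with a median of -0.14, and 6 were lower. These ranges overlap, and Farsb (-0.40) lay within that of the genes with a match. For comparison, 7 of the 24 amino acid response genes with a window, described next, held the string (29.2%). These 7 went both ways: Nupr1 (-1.62), Asns (-0.57), Slc1a4 (-0.40), Chac1 (-0.35, a bound), Trib3 (-0.07), Atf3 (-0.04) and Vldlr (0.19). The response genes with a window and no match did so too, from Ddit3 (-1.09) to Cebpb (0.21). Whether the string goes with a lower difference was not tested. The best known case is that of asparagine synthetase, Asns, which makes the amino acid rather than charging it, at chr6:7693210-7693258 (-).
Asns: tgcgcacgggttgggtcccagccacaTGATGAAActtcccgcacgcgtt

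The other genes of the amino acid response were lower as well. Of 27 detected genes of this list, which holds Atf4, genes of amino acid uptake and synthesis, and stress and signalling genes such as Ddit3, Trib3 and Vldlr, but no synthetase, 23 were lower and 4 higher. The 1.2-fold size was reached by 14 downward and 0 upward, with a median of -0.27. That median was -0.22 with an added offset and -0.20 as the median over detected probe sets of a gene. Without the probe set classes _s_at, _x_at and _a_at it was -0.18, over 20 genes. The list largely repeats genes already known from these arrays to be lower, so it is not independent evidence. Largest were Nupr1, a stress-induced chromatin protein gene (56.6 against 175, -1.62), Ddit3, which encodes the transcription factor CHOP (361 against 777, -1.09), and Slc7a5, a transporter of large neutral amino acids (321 against 532, -0.72). Ddit3 had another probe set with the opposite sign (393 against 250). Atf4 itself stood at 3036 in the knockout and 3696 in the wild type (-0.27), and its activity is known to be set largely by translation.

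Further genes of tRNA charging also tended lower. Of 15 detected genes, 12 were lower and 3 higher, 5 at least 1.2-fold lower and 1 that much higher, with a median of -0.23. Aimp2, a scaffold protein of the multisynthetase complex, had 386 against 522 (-0.42), and Tarsl2, a relative of Tars, had 58.6 against 78.3 (-0.41). The other scaffold genes Eef1e1 (-0.26) and Aimp1 (-0.05) differed less. Mtfmt, which formylates the mitochondrial initiator methionine tRNA, was the gene higher past 1.2-fold, with 57.5 against 45.8 (0.34).

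Mitochondrial ribosomal protein genes differed from the mitochondrial synthetases in their direction. Of 76 detected genes 71 were lower, 16 at least 1.2-fold and 0 that much higher, with a median of -0.15, close to the cytosolic synthetases (-0.16) rather than to the mitochondrial ones (-0.02). The lowest was Mrps25, a small subunit protein gene, at 269 against 377 (-0.47). Cytosolic ribosomal protein genes were balanced, with 18 of 40 lower and a median of 0.002. In the main processing, cytosolic synthetases and mitochondrial ribosome genes were thus the lower sets, and mitochondrial synthetases and cytosolic ribosome genes the balanced ones. The balance of the mitochondrial synthetases depended on the processing. Of them 11 of 15 were lower after quantile normalization and 6 of 8 with the floor at the 75th percentile. The difference between these lists was not tested. The summed intensity of 5 proliferation markers was 13442 in the knockout and 14652 in the wild type, with 4 of 5 lower and a median of -0.12, and its part in these results was not tested.

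**Figure D4:**
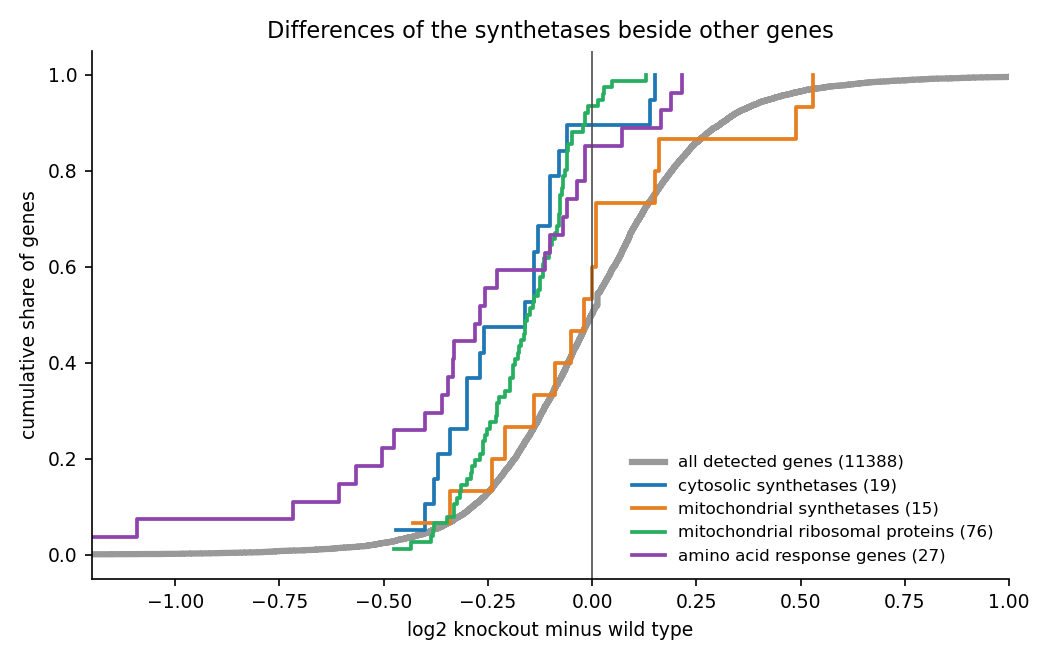
Cumulative share of genes (vertical axis) by log2 knockout minus wild type (horizontal axis) for all 11388 detected genes (grey), 19 cytosolic synthetases (blue), 15 mitochondrial synthetases (orange), 76 mitochondrial ribosomal protein genes (green) and 27 amino acid response genes (purple), with the axis limited so that the lowest value (Nupr1, -1.62) is not shown. The orange curve follows the grey one, and the other curves lie to the left of it.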

How the data were processed

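Deposited values are linear intensities, 1 for each of 45037 probe sets on each array, and MAS5 is the only program that the submitters' processing notes name. Intensities had medians of 25.9 (knockout) and 25.2 (wild type). Since 5.63% of probe sets hold an identical value on both arrays, how the values were summarised is not settled here. The sources used here do not give array scaling, detection calls or genome build. The platform's annotation gave 34945 probe sets 1 gene, 932 several and 9160 none, and 34741 of those with 1 gene matched the RefSeq gene table.

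Intensities were converted to log2, and the knockout array was shifted so that the median difference over detected probe sets was 0 (removing -0.013). Lower values were raised to the floor, which was the same for both arrays. Each gene was represented by its brightest probe set. Python 3.11.15, pandas 2.3.3 and numpy 2.4.6 were used, and the procedure was tested on simulated arrays in which 200 bright genes were changed. The simulated noise was smaller than the SD between probe sets here. That test therefore checked the calculation and not the error of differences as small as those described. Members with a difference of at least 1.2-fold, and the 3 highest and lowest of a compartment, were described in full, and of other lists the 3 largest, with any further gene chosen after its values were seen. Members and lists were chosen with earlier results of these data known. Alternatives covered scaling, floor, offset, probe set choice and the genes of both compartments.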

Additional observations from a re-analysis of the deposited data

How the results depend on the processing

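Across 11 alternatives, between 15 and 17 cytosolic genes were lower (15 of 17 without Gars and Kars), 7 to 10 were lower by at least 1.2-fold and 0 higher by that much. Under all of these the medians of both compartments and their gap kept their sign. The cytosolic median was -0.22 after quantile normalization, -0.27 as the median over detected probe sets of a gene and -0.24 without the probe set classes _s_at, _x_at and _a_at. The gap between the compartment medians was -0.24 and -0.22 under the last 2 of these. Mitochondrial genes at least 1.2-fold lower numbered 4 after quantile normalization, and 1 with a floor at the 75th percentile, with an added offset, or without those probe set classes. Those at least 1.2-fold higher numbered 1 with that floor and 1 as the median over probe sets, which took Lars2 to 0.16. Quantile normalization left 11 of 15 mitochondrial genes lower, and 54% of all genes below 0. With the floor at the 75th percentile, 6 of 8 mitochondrial genes were lower, beside 52.4% of all genes below 0. Single genes that moved by more than the SD between probe sets were Nars2 (-0.04 with the floor at the 75th percentile, above which it lay only in the wild type), Aars (-0.22 without those classes) and Lars2. A separate floor for each array, added after the data were seen, moved none of these results past that limit. No paired analysis was possible because each genotype has 1 array. The loss of dim genes under the high floor, which kept 8 mitochondrial members, follows from its construction, and the cause of the other shifts was not tested.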

Other observations

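Genes of elongation factors and related factors were lower in the mitochondrial set and went both ways in the cytosolic one. Of 8 detected genes, 6 were lower, 1 at least 1.2-fold. Over all detected genes 50.2% were below 0 and 11.8% at least 1.2-fold lower, so the 1.2-fold count was near that share. The mitochondrial factors were all lower, with Gfm1 at 259 in the knockout against 327 in the wild type (-0.32) and Tufm at 288 against 347 (-0.25). Gfm2 (-0.15) and Tsfm (-0.12) were lower by less than the SD of a probe set. Among the cytosolic factors, Eef1a1 had 16821 against 16819, Eef1b2 had 9800 against 9910, Eef1d differed by -0.18 and Eef2 by 0.18.

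A further probe set is assigned to both Aars and Exosc6 and was kept out of the gene comparison. It had an intensity of 331 in the knockout and 388 in the wild type, a log2 difference of -0.22.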
